A study of Mus musculus with 6 samples.

Results

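The genes described here are 5 integrin alpha subunits (Itga8, Itgav, Itga4, Itga6 and Itga10) and Npnt, which encodes the matrix protein nephronectin. They are the integrin alpha genes of chromosomes 2 and 3 with a value in the deposited table, together with a ligand of the alpha 8 subunit, and they make up 6 of 7658 genes that a transcript cluster named singly. They were chosen with the comparison of siDicer and siScr already known, so their differences between those groups are given as a description. Their calls in the fit over all genes are listed but not read as a test. The cells were Melan-a, an immortalised line of pigmented melanocytes derived from the C57BL/6 mouse strain and labelled female, kept in 200 nM of the phorbol ester TPA, which these cells need to grow. Every sample received 50 pmol of siRNA with lipid and magnetic transfection reagents, either siDicer, directed at Dicer, the ribonuclease that releases mature microRNAs, or the control siScr. Each group had 3 arrays, at cell passages 47, 54 and 56, and each passage supplied 1 array to each group. The titles place lysis at 48 h after transfection, while the treatment protocol places it 24 h after a change of medium made at 6 h. All samples come from 1 cell line.

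Integrins are receptors of an alpha and a beta chain that span the plasma membrane, bind matrix or cell surface ligands outside the cell and connect them to actin through adaptors inside it. The alpha chain largely sets which ligand is bound. In melanocytes, laminin, fibronectin and vitronectin receptors of this family anchor the cell at the basement membrane and take part in its migration. Nephronectin is a basement membrane protein carrying an RGD peptide, known best as the ligand of the alpha 8 beta 1 integrin in the developing kidney.

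Each transcript cluster of an Affymetrix Clariom D mouse array has a log2 signal, with medians between 4.63 and 4.68 per array and a correlation of 0.993 to 0.997 between any 2 arrays. The transcript clusters analysed here lie on chromosomes 1 to 4. Dicer1, beta subunits other than Itgb6 and most other integrin genes were therefore not analysed, and these values give no check of the knockdown. Of the 26 integrin genes listed, 6 had a value. Itgb6, the beta 6 chain that pairs with alpha v in epithelia, was the other one, and it was dim, at 3.50 to 3.57 in siDicer and 3.50 to 3.58 in siScr. It lay under the 30th percentile of mean signal (log2 4.15) that was required for testing, while the 6 genes described here all lay above it. Levels are compared only within a gene, since probes of different genes differ in brightness. Of 15 melanocyte markers 5 had a value, among them Tyrp1, a melanosomal enzyme, at 12.68 to 12.96.

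Promoter sequences are shown for the genes that the results turn on, namely Itga8 and Npnt, which had the largest differences between the siRNA groups, and Itga4, which differed most between passages. They are RefSeq sequences of build GRCm38.p6, read 5' to 3' on the gene's own strand and ending just before the annotated gene. Capitals mark GC boxes, the letters GGGCGG on either strand, which Sp family factors bind. Itga8 is shown at chr2:12301986-12302194 on the minus strand, Npnt at chr3:132950292-132950541 on the minus strand and Itga4 at chr2:79255176-79255425 on the plus strand.
Itga8: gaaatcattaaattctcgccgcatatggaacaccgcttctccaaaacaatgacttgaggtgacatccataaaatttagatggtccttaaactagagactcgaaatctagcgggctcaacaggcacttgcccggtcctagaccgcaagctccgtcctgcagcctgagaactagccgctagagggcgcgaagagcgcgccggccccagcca
Npnt: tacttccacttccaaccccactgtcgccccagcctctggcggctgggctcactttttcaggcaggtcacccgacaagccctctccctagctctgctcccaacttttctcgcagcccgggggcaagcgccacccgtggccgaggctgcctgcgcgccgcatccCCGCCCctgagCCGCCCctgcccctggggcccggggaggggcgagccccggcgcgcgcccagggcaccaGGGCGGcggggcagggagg
Itga4: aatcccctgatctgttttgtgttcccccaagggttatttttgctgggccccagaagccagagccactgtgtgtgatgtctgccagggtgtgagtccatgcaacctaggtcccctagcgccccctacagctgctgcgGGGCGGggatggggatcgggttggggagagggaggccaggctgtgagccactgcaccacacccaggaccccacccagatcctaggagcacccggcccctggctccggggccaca

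Npnt has 2 annotated starts, of which the first is shown, and Itga6 had no promoter entry. The window of 250 bases before the start held 3 GC boxes at that first Npnt start, beginning 88, 77 and 19 bases upstream, 0 at the second, which lies inside the gene, 1 in Itga4, beginning 114 bases upstream, and 0 in Itga8, Itgav and Itga10. The whole Itgav window and 41 bases of the Itga8 window lay inside the annotated gene, so Itga8 is shown with 209 bases. A GC box was present in 32.7% of 32851 mouse promoter windows of that length. The AP-1 letters TGANTCA, the E-boxes CACGTG and CATGTG and the TATA box TATAAA, searched on both strands, had 0 matches in the windows of these 5 genes, against 6.75%, 6.02%, 12.3% and 12.4% of all windows. The letters do not overlap one another in these windows, and a match or its lack describes the sequence alone. GC content was 74.0% in the first Npnt window and 69.6% in the second, 64.0% in Itga4 and 56.4% in Itga8, with a median of 52.4% over all windows.

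Itga8 encodes the alpha 8 chain, which pairs with beta 1 and recognises RGD-containing proteins such as nephronectin, fibronectin and tenascin C. Its signal (transcript cluster TC0200002972.mm.1, chromosome 2) was 7.31, 7.66 and 7.25 in siDicer at passages 47, 54 and 56, and 6.59, 6.61 and 6.08 in siScr. The groups were apart on every array, with 0.65 between the lowest siDicer and the highest siScr value. The means were 7.41 ± 0.22 and 6.42 ± 0.30 (SD, n = 3), so siDicer was higher by log2 0.99 with a standard error of 0.16 and a 95% interval of 0.61 to 1.36, or 1.98-fold. Within passages the difference was 0.73 at 47, 1.05 at 54 and 1.18 at 56. The widest difference fell at passage 56, where the siScr array was the lowest of all 6.

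Npnt was next in size. Its signal (TC0300002972.mm.1, chromosome 3) was 9.20, 9.03 and 9.25 in siDicer and 8.64, 8.39 and 8.78 in siScr at passages 47, 54 and 56. Again no siDicer array reached down to a siScr array, the gap being 0.26, and in both groups the array of passage 54 was the lowest. The means of 9.16 ± 0.12 and 8.60 ± 0.20 (SD, n = 3) differed by log2 0.56 ± 0.11 (SE), with a 95% interval of 0.31 to 0.82, which is 1.48-fold. The passages gave 0.57, 0.65 and 0.48. The ligand and its alpha chain were thus both higher in siDicer at each passage, but the sizes ran in different orders, with the smallest Npnt difference and the largest Itga8 difference at passage 56.

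**Figure D1:**
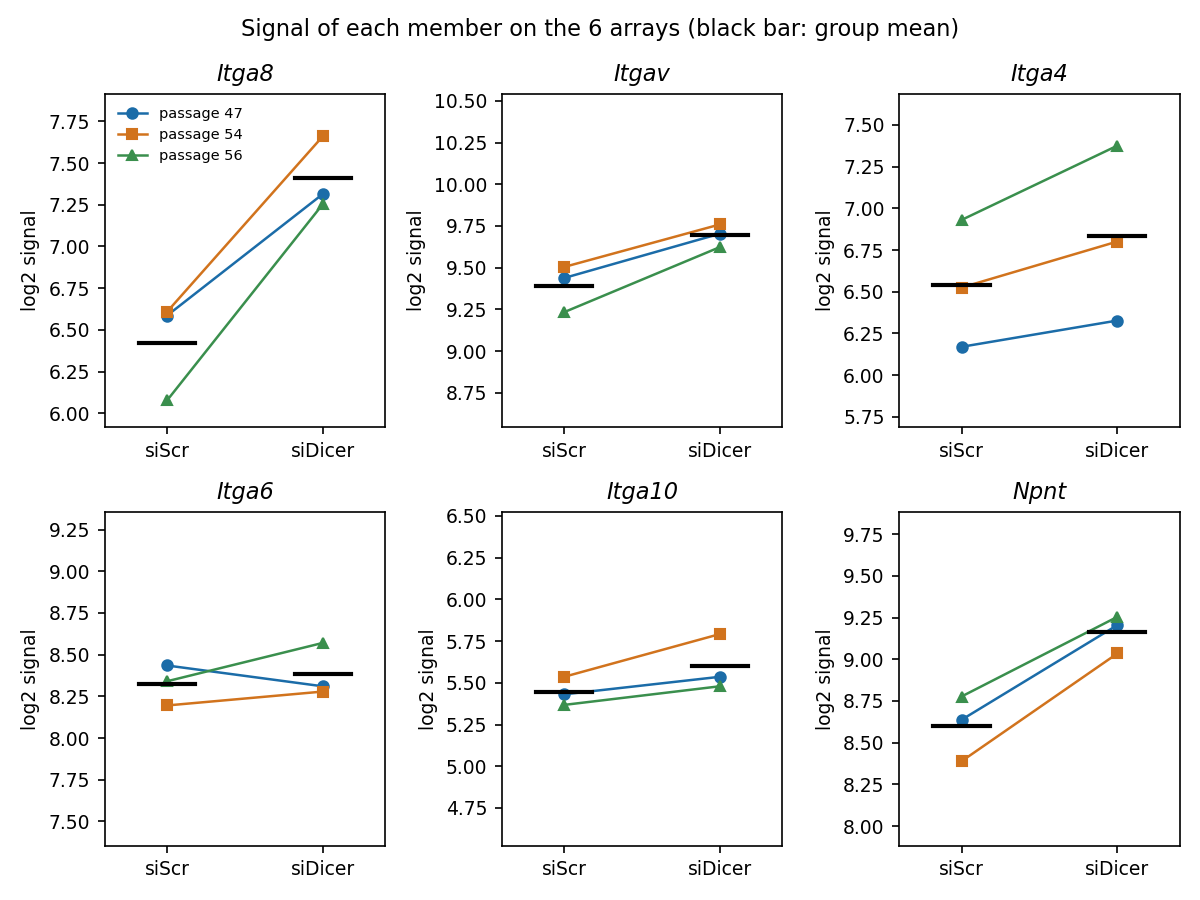
Log2 signal of each gene in siScr and siDicer, with the 2 arrays of a passage joined by a line and group means as black bars; each panel spans 2 log2 units. The lines of Itga8, Itgav and Npnt climb at all 3 passages with no overlap of the groups, those of Itga4 climb but start from different levels, and the Itga6 line of passage 47 slopes down from 8.44 to 8.31.

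Itgav encodes the alpha v chain of the vitronectin receptors, which pairs with several beta chains and also takes part in the activation of latent TGF-beta. Its signal (TC0200001203.mm.1, chromosome 2) was 9.70, 9.76 and 9.62 in siDicer and 9.44, 9.50 and 9.23 in siScr. The groups did not overlap, although the gap between them was only 0.12. The difference was log2 0.30 ± 0.087 (SE), with a 95% interval of 0.10 to 0.50, from means of 9.70 ± 0.068 and 9.39 ± 0.14 (SD, n = 3). At passages 47, 54 and 56 it was 0.27, 0.26 and 0.39, a narrower spread than that of Itga8.

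Itga4 encodes the alpha 4 chain, which binds VCAM1 and fibronectin and is well known for its part in the movement of leukocytes and neural crest cells. Its signal (TC0200001158.mm.1, chromosome 2) was 6.33, 6.80 and 7.38 in siDicer and 6.17, 6.53 and 6.93 in siScr at passages 47, 54 and 56. The groups overlapped widely, because arrays of 1 group lay further apart than the groups did. The mean difference was close to that of Itgav, at log2 0.29, but its standard error was 0.27 and its 95% interval ran from -0.33 to 0.92. Within passages siDicer was higher by 0.16, 0.28 and 0.45. With 1 array left out the difference ran from 0.02 without siDicer replicate 3 to 0.55 without siDicer replicate 1. With passage as a block its 95% interval was 0.12 to 0.46, but Itga4 did not pass in that fit. It passed in 0 of 9 other settings of the blocked fit.

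Itga10 encodes the alpha 10 chain of a collagen receptor best known from cartilage. Its signal (TC0300003218.mm.1, chromosome 3) was 5.54, 5.79 and 5.48 in siDicer and 5.43, 5.54 and 5.37 in siScr. The groups overlapped, and the siDicer array of passage 54 stood above the other 5. The difference was log2 0.16 ± 0.093 (SE), with a 95% interval of -0.056 to 0.37, and 0.11, 0.26 and 0.11 within passages. With passage as a block the interval was 0.015 to 0.30, but Itga10 did not pass in that fit. It passed in 0 of 9 other settings of the blocked fit. Without siDicer replicate 2 the difference was 0.063.

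Itga6 encodes the alpha 6 chain of laminin receptors, including the one in hemidesmosomes. Its signal (TC0200001045.mm.1, chromosome 2) was 8.31, 8.28 and 8.57 in siDicer and 8.44, 8.20 and 8.34 in siScr, so the groups overlapped. The difference of log2 0.063 ± 0.10 (SE) had a 95% interval of -0.17 to 0.30, and of -0.13 to 0.25 with passage as a block. Its sign was not shared by the passages, which gave -0.12, 0.083 and 0.23. Leaving out siDicer replicate 3 gave -0.029, and leaving out siScr replicate 2 gave -0.0013.

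As a group, 6 of 6 genes had a difference above 0, as did 45.5% of the 5360 tested genes, and 5 of 6 were higher at all 3 passages, as were 16.1% of tested genes. The median difference was 0.30 over the 6 genes and 0.29 over the 5 integrins, against -0.0093 over all tested genes. In 3 of 6 genes (Itga8, Itgav and Npnt) all siDicer values lay above all siScr values, which held for 6.68% of tested genes. At an adjusted p of 0.05 over all genes (limma, Benjamini-Hochberg), 0 of the 6 passed in the fit without passage, where 0.0187% of genes passed. With passage as a block 2 of 6 passed, Itga8 and Npnt, where 1.74% did. The Npnt call was lost without passage 47 and without passage 54. Nothing is read from these calls and shares, since this contrast was known when the genes were chosen.

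**Figure D2:**
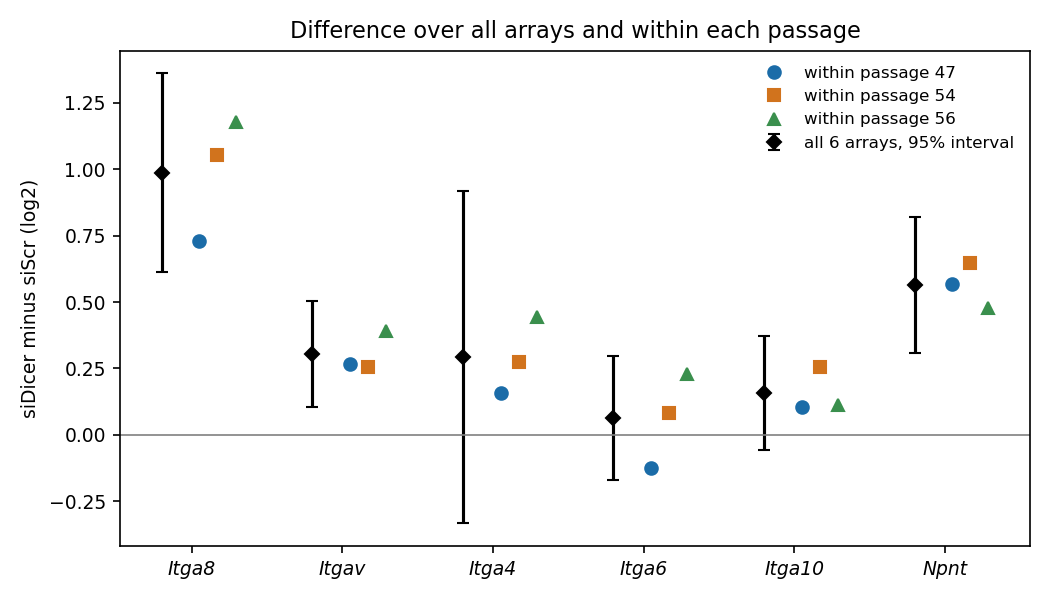
Difference of siDicer minus siScr in log2 units for each gene, over all 6 arrays with its 95% interval (black) and within each passage (coloured). The interval of Itga4 spans -0.33 to 0.92 while its 3 passage values lie between 0.16 and 0.45, and only Itga6 has a passage value below 0.

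Cell passage was tested separately, since the genes were not chosen on it. The fit held the siRNA group as a second term, and each passage had 2 arrays. Itga4 differed between passages (limma F test, adjusted p = 0.0108), a result shared by 1.85% of tested genes. Its mean rose from 6.25 at passage 47 to 6.66 at passage 54 and 7.15 at passage 56. Passage 56 was higher than passage 47 by log2 0.90 ± 0.088 (SE), or 1.87-fold (limma, adjusted p = 0.0232), and this held by 1.05 in siDicer and by 0.76 in siScr. That pairwise contrast was passed by 4 of 5360 genes, or 0.0746%. The steps from 47 to 54 and from 54 to 56 were 0.41 and 0.49 and did not pass alone (limma, adjusted p = 0.0569 and 0.0594). Those 2 contrasts were passed by more genes, 163 and 56 of 5360. The adjusted p of the Itga4 passage effect ran from 0.00258 to 0.0775 over 12 other settings and missed the threshold in 1 of them, without siDicer replicate 1. Each passage is also 1 replicate number, so passage and anything else that differed between replicates cannot be told apart. Of the cell type markers, Slc24a5 and Mlph (2 of 5 tested melanocyte markers), Col3a1 (1 of 4 fibroblast markers) and Cd53 (1 of 4 leukocyte markers) also passed the passage test, and their part in the Itga4 result was not tested.

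The other 5 genes did not pass the passage test (limma, adjusted p from 0.148 for Itga8 to 0.489 for Itga6). Their passage means had no common order. Itga8, Itgav and Itga10 were highest at passage 54 and lowest at passage 56, by log2 0.47, 0.20 and 0.24, and both siRNA groups showed that order. Npnt ran the other way, with its lowest mean at passage 54 and a difference of 0.30 to passage 56. Whether the siRNA difference itself varied with passage could not be tested, with 1 array for each group and passage.

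**Figure D3:**
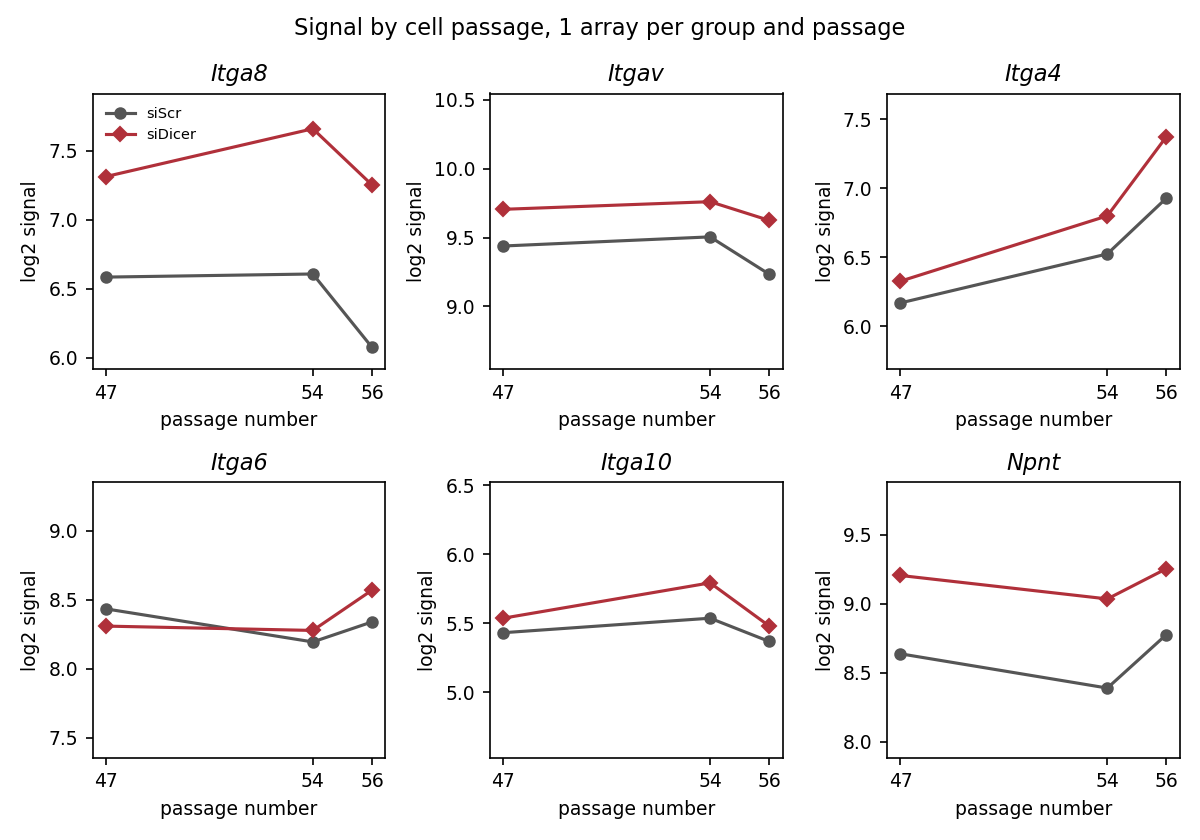
Log2 signal against passage number for siScr and siDicer, 1 array per point; each panel spans 2 log2 units. Itga4 climbs from passage 47 to 56 in both groups, by 0.76 in siScr and 1.05 in siDicer, while Itga8, Itgav and Itga10 peak at passage 54 and Npnt has its lowest values there.

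The ligands of these receptors were read from a list of 65 genes, of which 30 besides Npnt were tested. Of these, 14 were higher and 16 lower in siDicer, with a median of -0.030, and 0 passed without the passage block (4 had an unadjusted p under 0.05). With passage as a block 2 rose and 1 fell, where 1.14% of tested genes rose and 0.597% fell. Thbs1, thrombospondin 1, a matrix glycoprotein bound by alpha v integrins, was at 9.11, 9.90 and 9.14 in siDicer and 8.44, 9.15 and 8.25 in siScr. The siScr array of passage 54 reached into the siDicer range, yet each passage gave a higher siDicer value, and Thbs1 rose by log2 0.77 ± 0.071 (SE, blocked limma fit, adjusted p = 0.00653). Lamc1, the gamma 1 chain found in most laminins, was at 9.67, 9.87 and 9.61 against 9.31, 9.41 and 9.16, and rose by 0.42 ± 0.065 (SE, blocked limma fit, adjusted p = 0.0308).

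Vcam1, a cell surface ligand of alpha 4 integrins, was at 6.34, 6.99 and 6.51 in siDicer and 6.69, 7.35 and 6.91 in siScr. It fell by 0.37 on the log2 scale (SE 0.058, blocked limma fit, adjusted p = 0.0329). At each passage siDicer was lower in this ligand and higher in Itga4. Itga4 was chosen with this contrast known and passed in neither fit, and its difference was 0.02 without siDicer replicate 3. A relation between the 2 genes was not tested. Lama5, the alpha 5 laminin chain, and Hspg2, the proteoglycan perlecan, differed by 0.35 and 0.30 and did not pass in either fit, although Lama5 passed in 6 and Hspg2 in 3 of 9 other settings of the blocked fit. Without siDicer replicate 2 Lama5 was at 0.20. Without the block the 3 genes that passed with it had limma adjusted p-values of 0.459, 0.238 and 0.687. Left out in turn, siDicer replicate 2 and siScr replicate 2 moved Thbs1 to 0.51 and 1.04, and Vcam1 to -0.56 and -0.19. Without passage 47 none of the 3 passed (blocked limma fit, adjusted p = 0.0534, 0.163 and 0.195 for Thbs1, Lamc1 and Vcam1), and Lamc1 and Vcam1 were also lost without passage 54 (adjusted p = 0.165 and 0.138) and when dim genes were included (adjusted p = 0.0539 and 0.0552).

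Of the 30 tested ligands 6 passed the passage test, Thbs1, Tnc, Vcam1, Ccn1, Thbs3 and Col3a1 (limma F test, adjusted p from 0.0108 to 0.0365). Of all tested genes 1.85% passed it. Passage and replicate number cannot be told apart here either. All 6 were highest at passage 54 in both siRNA groups. Tnc, tenascin C, an alpha 8 and alpha v ligand, was at 5.95, 6.57 and 5.85 in siScr and 5.90, 6.39 and 5.71 in siDicer at passages 47, 54 and 56. Ccn1, a matricellular ligand of alpha v and alpha 6 integrins, was at 10.96, 11.40 and 10.63 in siScr and 10.99, 11.66 and 10.78 in siDicer. The passage profile of Itga4, highest at 56, was not that of these ligands.

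Proteins that switch integrins on or link them to actin and signalling were read from a list of 66 genes, with 22 tested. In siDicer 13 were higher and 9 lower, with a median of 0.040, and 0 passed without the block (5 had an unadjusted p under 0.05). With passage as a block 1 rose. This was Kank4, of the family of talin-binding proteins that border focal adhesions, at 7.61, 7.63 and 7.60 in siDicer and 7.17, 7.30 and 7.05 in siScr. The siDicer arrays lay within 0.03 of one another and above every siScr array, and Kank4 rose by 0.44 ± 0.068 (SE, blocked limma fit, adjusted p = 0.0308). It did not pass without passage 47, without passage 54 or when dim genes were included (blocked limma fit, adjusted p = 0.196, 0.0684 and 0.0539), nor without the block (adjusted p = 0.128).

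The others had smaller differences, the largest being 0.33 for Tns1 and -0.32 for Pik3r3, which did not pass in either fit. Cdc42 and Rap1a, small GTPases of cell shape and of integrin activation, differed by -0.19 and -0.21, and the tetraspanin gene Tspan2 by 0.22. None of these passed in either fit. In this list the groups did not overlap in 2 lower genes, Cdc42 and Rap1a, and in 3 higher genes, Kank4, Tln1 and Nck2. This held, in either direction, for 14.5% of tested genes. Without siScr replicate 1 Rap1a was at -0.13. Tln1, talin 1, which activates integrins by binding the beta tail, differed by 0.12.

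**Figure D4:**
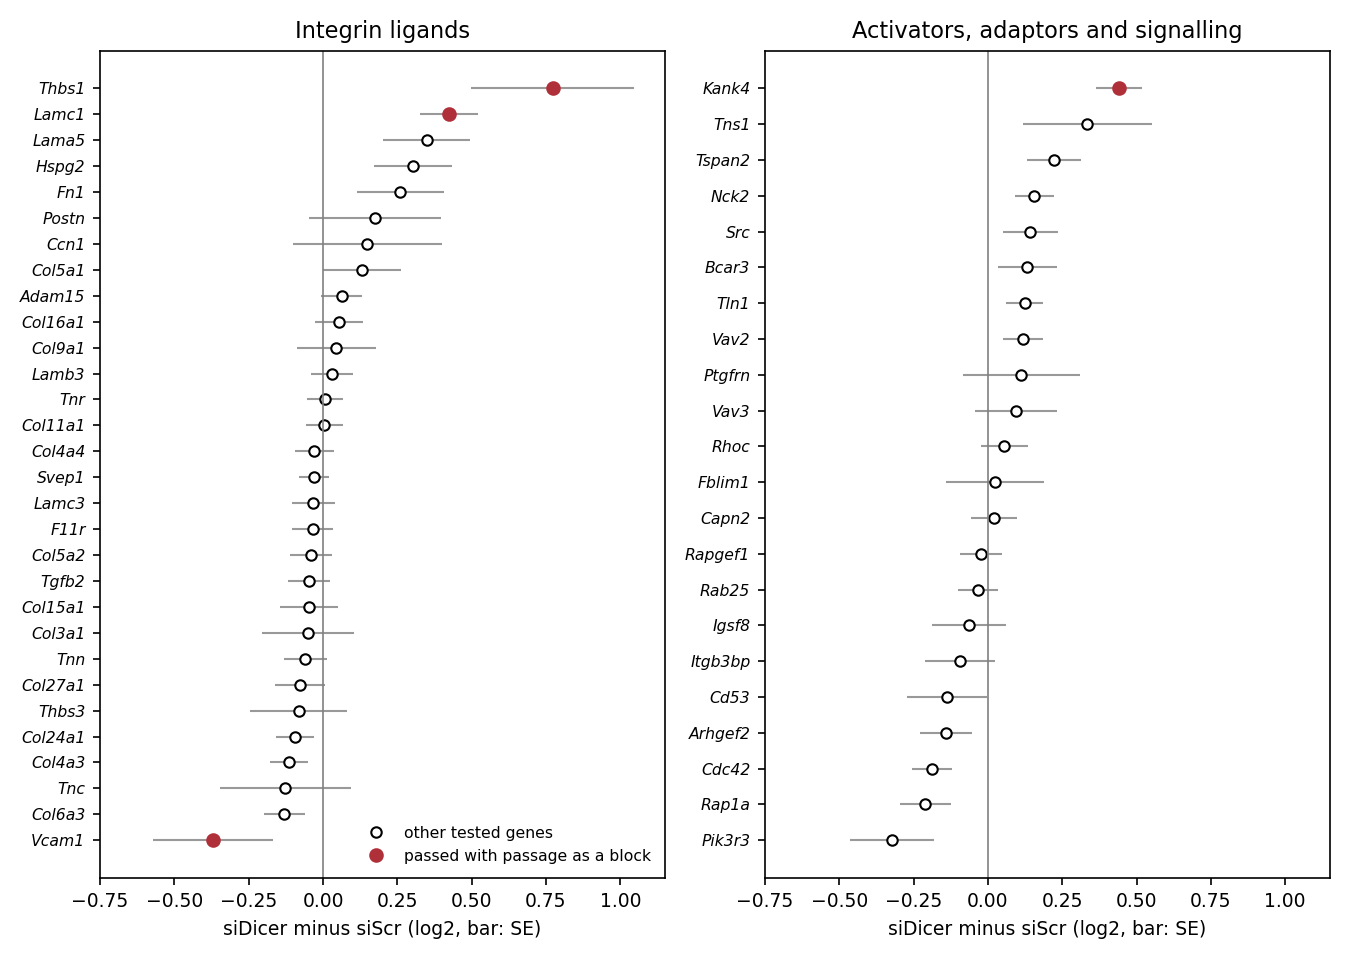
Difference of siDicer minus siScr in log2 units for every tested ligand (left) and every tested activator, adaptor or signalling gene (right), with the standard error of the fit without passage; filled points passed with passage as a block. Most points lie near 0, with Thbs1 at 0.77 and Lamc1 at 0.42 on the high side, Vcam1 at -0.37 on the low side and Kank4 at 0.44.

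Of 21 genes that act with nephronectin and alpha 8 in kidney development or in basement membranes, 8 besides Npnt and Itga8 were tested. In siDicer 3 were higher and 5 lower, with a median of -0.015, and 0 passed in either fit (Hspg2 alone had an unadjusted p under 0.05 without the block). Frem2 and Frem1, matrix proteins of the complex that holds nephronectin at the basement membrane, differed by 0.17 and -0.0005. The heparan sulfate sulfotransferase gene Hs2st1 differed by 0.12 and the type IV collagen gene Col4a3 by -0.11. Without siDicer replicate 1 Frem2 was at 0.076.

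Neighbouring genes were read to see whether the differences extended along the chromosome. The 2 nearest protein coding genes on each side, in RefSeq order, gave 24 neighbours, 17 of them tested. In siDicer 4 were higher and 13 lower, from -0.46 to 0.10, with a median of -0.065. Beside Itga8, Mindy3 differed by -0.25 and Pter by -0.065. Beside Npnt, Tbck differed by 0.10 and Gstcd by 0.095, against 0.56 for Npnt itself. With passage as a block 2 neighbours fell, Fam171b beside Itgav by 0.39 and the predicted gene Gm14461 beside Itga4 by 0.46 (limma, adjusted p = 0.0308 and 0.0262), where 0.597% of all tested genes fell, and 0 neighbours passed without it. Without siDicer replicate 1 Fam171b was at -0.24. Both calls were lost without passage 47 (adjusted p = 0.196 and 0.141) and without passage 54 (adjusted p = 0.0767 for each), and that of Fam171b also when dim genes were included (adjusted p = 0.0539).

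Profiles most like that of a gene were found by the root mean square difference over the 6 arrays, after each of 3477 named genes was centred on its own mean. For Itga8 the closest was F3, tissue factor, at log2 0.11, followed by Thbs1 at 0.26 and Fndc3b, a fibronectin type III domain protein, at 0.30. F3 was at 8.12, 8.62 and 8.25 in siDicer and 7.47, 7.69 and 7.21 in siScr. Like Itga8 it had a gap between groups and a low siScr value at passage 56. Since F3 was picked for likeness over these same 6 arrays, such sharing follows from the choice. For Npnt the closest were the transporter family gene Mfsd6 (0.080), the galactosyltransferase gene B4galt5 (0.086) and the orphan receptor gene Gpr157 (0.10). For Itgav they were the receptor gene Notch2 (0.055), the membrane fusion gene Snap23 (0.060) and Spaar (0.061). Itga8 and Npnt lay 0.40 apart by this measure, and among the 6 genes the closest pair was Itgav and Itga10, at 0.11.

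**Figure D5:**
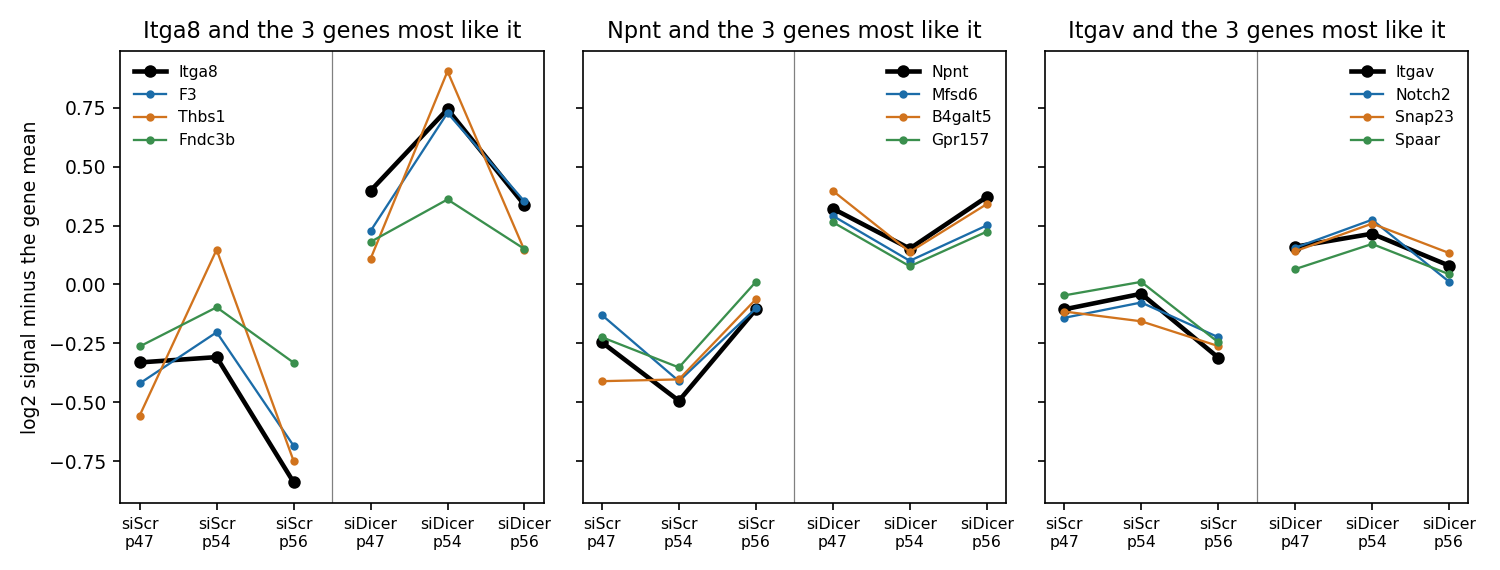
Log2 signal of Itga8, Npnt and Itgav on the 6 arrays, each minus its own mean, with the 3 genes of smallest root mean square difference; p47 to p56 are passages. F3 follows Itga8 within a root mean square of 0.11, while Fndc3b, at 0.30, has the same order with a smaller swing.

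Markers of other cells that carry these integrins were read beside the results. Smooth muscle and mesangial cells, in which alpha 8 is abundant, had 4 of 11 markers with a value, whose mean signal ran from 6.08 to 6.43 in siDicer and 6.13 to 6.31 in siScr. Fibroblast markers (7 of 12) ran from 4.69 to 4.91 and 4.77 to 4.91, endothelial (7 of 11) from 4.14 to 4.22 and 4.17 to 4.24, leukocyte (8 of 11) from 3.92 to 4.02 and 3.93 to 4.04, and keratinocyte markers (6 of 11) from 4.94 to 5.02 and 4.93 to 5.07. In these 5 lists the ranges of the groups overlapped. Those tested were 4 smooth muscle and mesangial, 4 fibroblast, 3 endothelial, 4 leukocyte and 4 keratinocyte markers. Of them 0 passed with or without the block, and 0 had an unadjusted p under 0.05 without the block (limma). The fibroblast marker Fap, too dim to be tested, differed by -0.22, with groups that did not overlap (limma with dim genes included, unadjusted p = 0.00917). Among tested genes 14.5% did not overlap, in either direction. Melanocyte markers (5 of 15, 0 passing) ran from 10.15 to 10.53 and 10.25 to 10.72. All 5 had a mean lower in siDicer, as did all 3 tested endothelial and all 4 tested leukocyte markers. Of all tested genes 45.5% were higher. The difference of Tyrp1 was -0.049, and 0.015 without siDicer replicate 2. Of the Schwann cell markers 2 of 7 had a value, at 7.59 to 8.03 in siDicer and 7.93 to 8.48 in siScr, and they differed in opposite directions. Pmp2, a myelin protein, fell by 1.01 on the log2 scale (blocked limma fit, adjusted p = 0.00653), a call that was lost without passage 47 (adjusted p = 0.05) and without the block (adjusted p = 0.186). Cdh19, a cadherin, differed by 0.18 and did not pass in either fit. The part of these markers in the differences was not tested, and in bulk RNA fewer cells of a type and less RNA per cell cannot be told apart.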

How the data were processed

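The deposited values are log2 signals per transcript cluster on 6 arrays. How the authors normalised them is unknown. The submitters' processing notes name Affymetrix Expression Console. Its version, the probe summarisation, the annotation and the build were not given in the sources used here. The log2 scale was inferred from the range of 1.70 to 13.70, and the centring is unknown. Per the labels' protocols, 100 ng of total RNA with an integrity number of 10.0 went onto each array. The number of arrays limits the precision.

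Symbols of the platform annotation were updated through the RefSeq gene table of GRCm38.p6. Of 16383 clusters 7715 then had 1 gene, 270 several and 8398 none. Of several clusters of a gene the one with the highest mean was kept; each of the 6 members had 1. Of 7658 genes, those with a mean under the 30th percentile were left out, and 5360 were tested with limma 3.58.1 in R 4.3.3 (lmFit, eBayes with a trend, two-sided, Benjamini-Hochberg over all tested genes, threshold 0.05). Without passage in the fit 1 gene passed, and with passage as a block 93. In the labels a replicate number means 1 passage, the same in siDicer and siScr, which pairs the samples. Deviations from group means correlated at 0.42, 0.62 and 0.070 for replicates 1, 2 and 3. On simulated data for the siDicer and siScr comparison (5360 genes), 69 of 100 changes of log2 0.5 and 94 of 100 of log2 1 were recovered without the block, and 76 and 94 with it. Each fit made 5 false calls. These rates hold for the simulated spread and number of changed genes, and they do not measure the recovery in the real data. An exact permutation test of 3 against 3 arrays cannot go below 0.1.

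The text names every member, up to 4 genes of each pathway list by smallest p and any that passed, the 3 genes of most like profile for Itga8, Npnt and Itgav, and some of the 2 nearest protein coding genes on each side. Further genes (Itgb6, Tln1, Nck2, Tns1, Pik3r3, Frem1, Tnc, Ccn1, Thbs3, Col3a1, and the cell type markers) were named after their values were seen. Members, lists and rules were chosen with earlier results of these data known. Whether the replicates are separate cultures rests on the design text, which calls them biological.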

Additional observations from a re-analysis of the deposited data

Results flagged for a closer look

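The Itga6 difference between siDicer and siScr had opposite signs at different passages, -0.12 at passage 47 and 0.23 at passage 56 on the log2 scale. Each passage had 1 array per group, so this difference was not tested.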

How the results depend on the processing

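Over 17 other settings each, 102 of 102 values of the 6 differences lay within 1 pooled SD between replicates of the value reported. In 3 of them, all of Itga6, the sign changed. The block, the changed dim filters, the fit without a trend and averaging the clusters of a gene could not move these differences. The measure is also wide for Itga4, with SDs of 0.525 and 0.38. Its value of 0.02 without siDicer replicate 3 still lay within it. Itga6 ran from -0.029 to 0.12 with 1 array left out and from -0.021 to 0.16 with 1 passage left out, and 5 genes stayed above 0 throughout. With passage as a replicate block, which leaves these differences as they are, the count of genes past the threshold was 93 in place of 1, and with array weights it was 14. With arrays or passages left out it ran from 0 to 2, being 0 without siDicer replicate 3 and without any 1 passage. Passage effects were called in 99 genes, and in 58 with dim genes kept in, 172 with the filter at the 50th percentile and 165 with array weights; leaving out 1 array gave 13 (siDicer replicate 1) to 313 (siScr replicate 3). The cause was not tested. The block combined with other settings was added after seeing the data: its count ran from 3 without passage 47 to 155 without passage 56, with 22 when dim genes were kept in. The Dicer1 transcript was not analysed here, and the values hold no background measure.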
